A study of Canis lupus familiaris with 8 samples.

Results

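This account follows the genes of protein entry and folding in the endoplasmic reticulum (ER), together with the heat shock protein families that share their names, in leaflets of the canine mitral valve (the anterior one). Members were all genes with a platform symbol equal to CALR or CANX, or starting with PDIA, DNAJ, HSPA, HSPB or HSP90, or with SPCS, SEC, SSR or SRP followed by a digit. This gave 68 of the 6540 genes that had a symbol of their own on the array, measured by 115 probe sets. Each gene is represented by its brightest probe set. The symbol rule did not keep to the ER: 41 of the 68 genes act in translocation, in ER folding or in transport from the ER to the Golgi, and the other 27 are cytosolic, nuclear or mitochondrial chaperones and their relatives. They are described by role for that reason.

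The leaflets came from 4 control dogs, all beagle crosses, and from 4 dogs affected by degenerative mitral valve disease, in which the leaflets thicken and no longer close well. Affected 1 was a Lhasa apso, affected 2 and affected 4 were Miniature poodles and affected 3 was a Dachshund, so breed and disease cannot be told apart. The ages and treatments of the dogs were not given in the sources used here. Each dog gave 1 Affymetrix array, made from whole frozen tissue, so fewer cells of a type and less RNA per cell cannot be told apart. The number of arrays, 4 in each group, limits the precision of every value.

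Proteins bound for secretion or for membranes carry a signal sequence that the signal recognition particle (SRP) binds as it leaves the ribosome. The ribosome is then docked on the SEC61 channel, the signal sequence is cut off by signal peptidase, and the chain folds with the help of HSPA5, HSP90B1, the lectins calnexin and calreticulin, and the disulfide isomerases. Valve interstitial cells make collagen and other matrix proteins by this route. Small heat shock proteins of the HSPB family hold unfolded proteins in the cytosol, and several are abundant in heart and skeletal muscle.

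Signals are given as log2 of the deposited intensity, and differences are affected minus control with the standard error (SE) from limma, which was fitted to all 14705 probe sets bright enough to be tested. Values below an intensity of 34.2, or 5.10 on the log2 scale, were set to that floor. A signal is not comparable between genes, because each probe set has its own brightness. Of the 68 genes, 66 passed the filter on dim probe sets. The 2 that did not were HSPA4, a cytosolic relative of the HSP70 chaperones, and DNAJB13, a J protein known from sperm flagella.

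Markers of valve interstitial cells were present on every array: 8 of 10 listed genes were measured, 0 of them lay at the floor in all dogs, and their summed intensity ranged from 43889 to 127911 in controls and from 97912 to 127548 in affected dogs. Summed intensity of cardiac muscle markers (18 of 25 listed genes measured) was highest in control 2 (311605) and lowest in affected 3 (30488). Control 2 also had the lowest sum of valve interstitial markers. Summed intensity of macrophage markers (10 of 10 measured) ranged from 1105 to 15388 in controls and from 14660 to 37303 in affected dogs, and that of endothelial markers (5 of 7 measured) from 7300 to 11021 and from 14791 to 26843. The array also carries probe sets for the 3' and 5' ends of GAPDH, whose ratio increases as RNA breaks down. It was 1.11, 1.00, 1.34 and 1.05 in controls 1 to 4 and 1.46, 1.44, 1.19 and 1.12 in affected 1 to 4.

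The comparison asked which of these genes differed between diseased and control leaflets. No member was called: 0 of 66 passed an adjusted p of 0.05 in limma, as did 0 of all 14705 probe sets (0%), and the smallest adjusted p of a member was 0.367. Without control 2 and affected 3, the dogs at the ends of the cardiac muscle markers, 128 of all tested probe sets passed and 0 members did. At an unadjusted p under 0.05, 2 members were higher in affected dogs, DNAJC3 and SEC61A1, and 2 were lower, HSPB6 and DNAJC30. Over the brightest probe sets of all 5437 tested genes the same rule took 4.8% higher and 3.92% lower, so 2 of 66 in each direction is near the background. The groups did not overlap for 1 member that was higher and for 0 that were lower, against 2.7% and 2.37% of all tested genes. The median difference over the 66 members was -0.09, against -0.01 over all tested genes, with 29 members above 0 and 37 below.

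Most differences were small. For 42 of the 66 members the difference was smaller than its own SE (63.6%, against 56% of all tested genes), and 4 members differed by more than 1 on the log2 scale (6.06% against 6.16%). For 37 members the 95% interval of the difference lay wholly within a factor of 2 in either direction (56.1% against 49.3%). For the other 29 members the 8 arrays do not exclude a 2-fold difference.

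**Figure D1:**
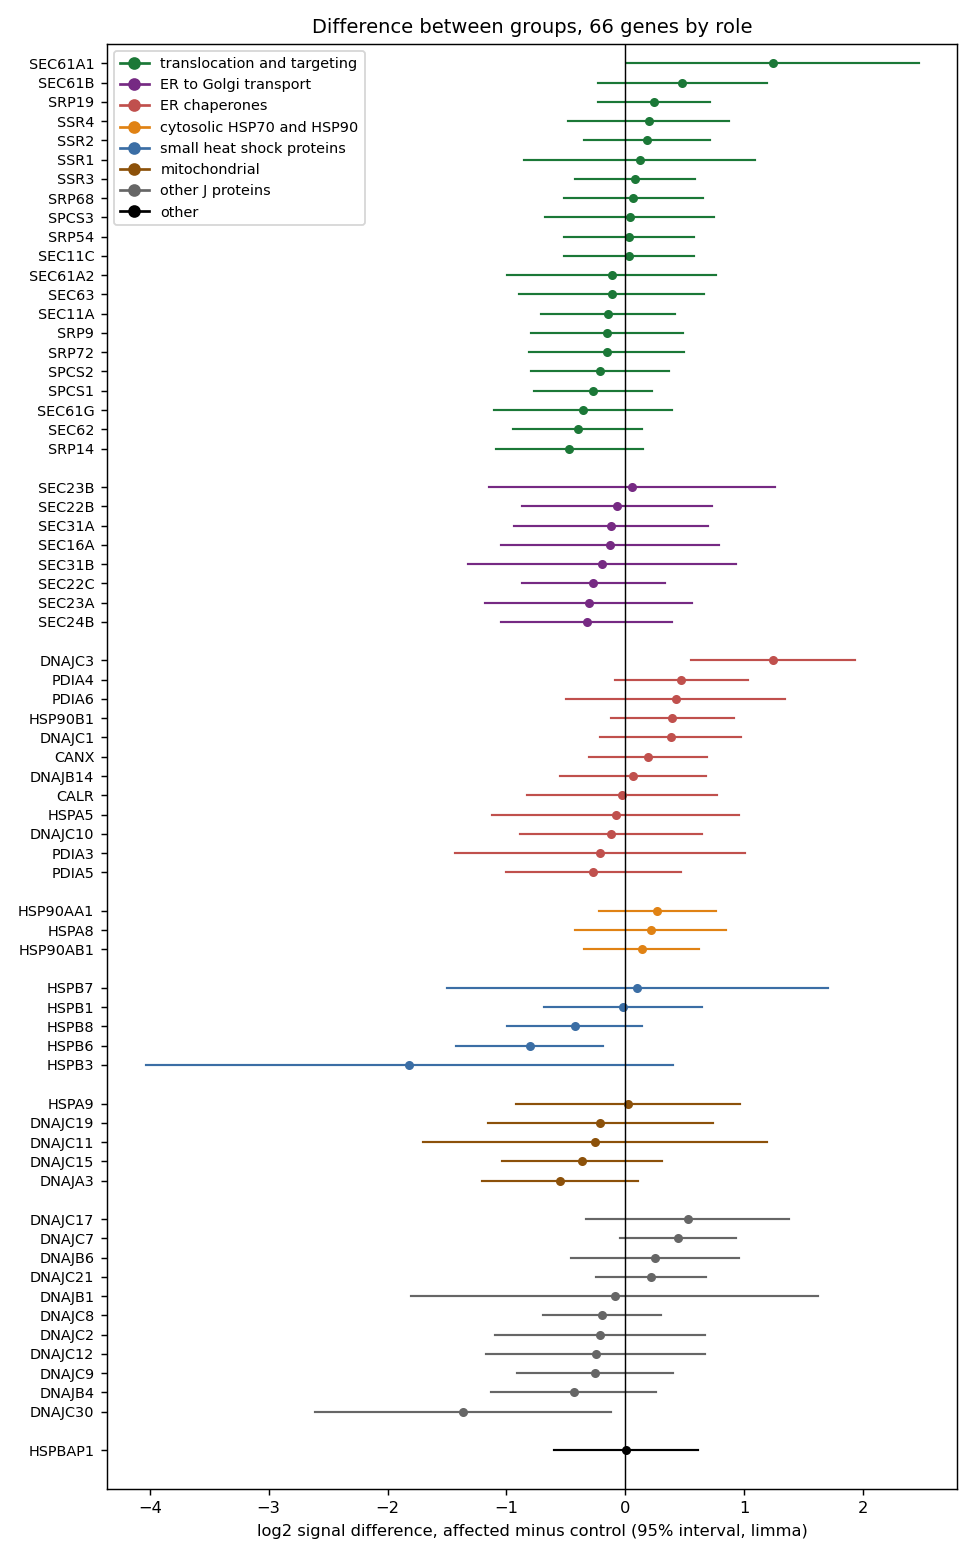
Difference in log2 signal between affected and control dogs for the 66 tested genes, ordered within each role, with points for the limma estimate and lines for its 95% interval (4 dogs per group, not adjusted for multiple tests). DNAJC3 at 1.24 and SEC61A1 at 1.24 lie farthest to the right, and HSPB3 at -1.82 and DNAJC30 at -1.37 farthest to the left. All intervals cross 0, that of HSPB3 included, except those of DNAJC3, SEC61A1, HSPB6 and DNAJC30.

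DNAJC3 was the one member whose groups did not overlap. It encodes an ER co-chaperone that hands unfolded chains to HSPA5 and is itself a target of the unfolded protein response, the programme that increases folding capacity when unfolded proteins build up. Its log2 signal was 9.34, 8.54, 8.81 and 8.86 in controls 1 to 4 and 10.41, 9.99, 9.44 and 10.68 in affected 1 to 4. Every affected dog lay above every control, but affected 3 exceeded control 1 by little. The difference was 1.24 ± 0.31 (SE, 4 dogs per group), or 2.37 times as high in affected dogs, with an adjusted p of 0.367 in limma. The gene has 3 tested probe sets, and all 3 were higher in affected dogs, by 0.50 to 1.24. The groups were separate only in the brightest of these. In the others they overlapped, with differences of 0.50 ± 0.25 and 0.52 ± 0.46 (adjusted p = 0.660 and 0.772 in limma). With the mean of the DNAJC3 probe sets in place of the brightest the difference was 0.75.

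SEC61A1, the subunit that forms the pore of the translocation channel, had a positive difference as large as that of DNAJC3. It was 10.76, 8.46, 10.89 and 10.59 in controls 1 to 4 and 12.13, 10.46, 11.30 and 11.78 in affected 1 to 4. The groups overlapped, because affected 2 lay below 3 of the controls, and control 2 lay far below all other dogs. The difference was 1.24 ± 0.55 with an adjusted p of 0.633 in limma. Without control 2 it was 0.67. Control 2 was also the dog with the highest cardiac muscle markers and the lowest interstitial and macrophage markers, and the part of these in the result was not tested. With the mean cardiac muscle signal of each dog as a covariate SEC61A1 differed by 0.94.

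**Figure D2:**
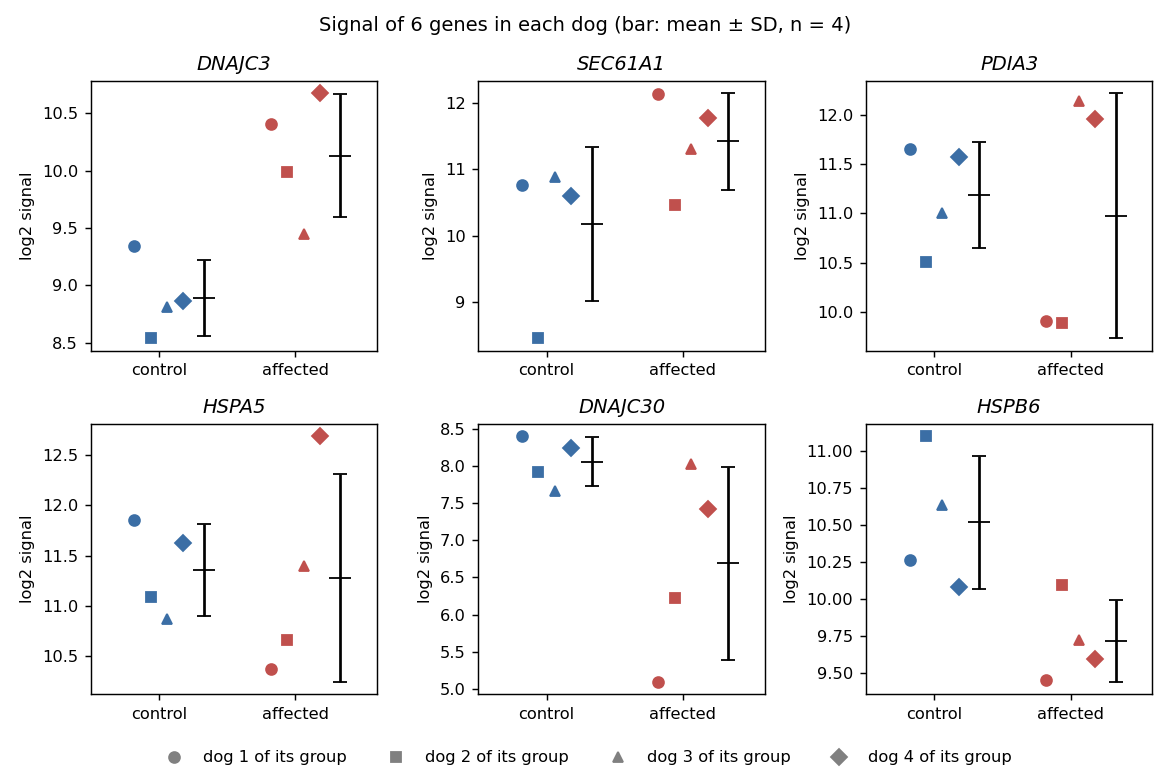
Log2 signal of 6 genes in each of 4 control (blue) and 4 affected (red) dogs, with 1 marker shape per dog number and the mean ± SD of each group in black. DNAJC3 is the only one of the 6 whose groups are separate, and in PDIA3 affected 1 and affected 2 lie near 9.9 while affected 3 and affected 4 lie near 12.

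The other subunits of the SEC61 channel had differences of either sign, and the contrast with SEC61A1 was not tested. SEC61A2, a second gene for the alpha subunit, differed by -0.11 ± 0.40, with control 2 the highest dog at 9.47, and by 0.23 without control 2. SEC61B, the small beta subunit, differed by 0.48 ± 0.32 and by 0.20 without control 2, where control 2 was again the lowest dog at 11.11. SEC61G, the gamma subunit, differed by -0.36 ± 0.34, with affected 1 at 11.25 and affected 2 at 10.68 below all 4 controls, while affected 3 and affected 4 at 12.03 and 12.25 lay within or above them. SEC62 and SEC63, which assist chains that enter after synthesis, differed by -0.40 ± 0.25 and -0.11 ± 0.35. The 3 probe sets of SEC63 ran from -0.11 to 0.72 and so did not share a direction.

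The 6 SRP proteins split in the same uneven way. SRP14 and SRP9 form the part of the particle that pauses translation, and they differed by -0.47 ± 0.28 and -0.15 ± 0.29. SRP14 was 11.10, 10.78, 10.79 and 10.86 in controls 1 to 4 and 9.81, 10.18, 10.81 and 10.85 in affected 1 to 4. The lower group mean came from affected 1 and affected 2, which lay below all controls, and the other affected dogs lay among the controls. Without both of those dogs the difference was -0.05. SRP54, which binds the signal sequence, differed by 0.03 ± 0.25, SRP19, which helps assemble SRP54 onto the particle's RNA, by 0.24 ± 0.21, and the paired subunits SRP68 and SRP72 by 0.07 ± 0.26 and -0.16 ± 0.29.

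The translocon-associated protein complex, encoded by SSR1 to SSR4, helps certain chains into the channel. Its 4 genes differed by 0.12 ± 0.44, 0.18 ± 0.24, 0.08 ± 0.23 and 0.20 ± 0.31. SSR1 varied most, from 9.27 in affected 1 to 11.38 in affected 4, and its 4 probe sets ran from -0.91 to 0.12. Signal peptidase removes the signal sequence. Its catalytic subunits SEC11A and SEC11C differed by -0.14 ± 0.25 and 0.03 ± 0.25, and its accessory subunits SPCS1, SPCS2 and SPCS3 by -0.27 ± 0.22, -0.21 ± 0.26 and 0.04 ± 0.32. Over the 21 translocation and targeting genes, 11 were above 0 and 10 below, the median difference was 0.03, and 0 passed an adjusted p of 0.05 in limma (1 at an unadjusted p under 0.05, SEC61A1).

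The chaperones of the ER had no shared direction either. Of 12 genes, 7 were above 0 and 5 below, with a median difference of 0.13. HSPA5, also called BiP, is the HSP70 of the ER and the usual marker of the unfolded protein response. Its log2 signal was 11.85, 11.09, 10.87 and 11.62 in controls 1 to 4 and 10.37, 10.66, 11.39 and 12.68 in affected 1 to 4. The affected dogs held both the lowest values and the highest, and the means differed by -0.08 ± 0.47 (95% interval from -1.12 to 0.96). Affected 4 was the highest of the 8 dogs for HSPA5 and for the brightest probe set of DNAJC3. Affected 1 was the lowest for HSPA5 and the second highest for that probe set of DNAJC3. The other probe sets of DNAJC3 did not share this order: affected 1 was the highest dog in 1 of them (9.22) and the lowest in another (6.46). Without affected 4 HSPA5 differed by -0.55, and without affected 1 and affected 2 by 0.68.

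HSP90B1, the HSP90 of the ER, differed by 0.40 ± 0.23, with 3 of the 4 affected dogs above all controls. PDIA4 and PDIA6, disulfide isomerases that work with HSPA5 and HSP90B1, differed by 0.47 ± 0.25 and 0.43 ± 0.42. PDIA4 was 11.30, 10.65, 11.16 and 10.92 in controls 1 to 4 and 11.71, 11.08, 11.31 and 11.81 in affected 1 to 4. Here affected 2 alone lay among the controls. For PDIA6 control 2 was the lowest dog at 10.42.

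PDIA3 partners calreticulin and calnexin in folding glycoproteins, and it had the widest spread of these genes among affected dogs. It was 11.65, 10.50, 11.01 and 11.57 in controls 1 to 4 and 9.92, 9.89, 12.14 and 11.95 in affected 1 to 4. Affected 1 and affected 2 lay below every control and affected 3 and affected 4 above every control, so the mean difference of -0.21 ± 0.55 describes none of the affected dogs. Its partners CALR and CANX differed by -0.03 ± 0.36 and 0.19 ± 0.22. Their probe sets also disagreed in direction, from -0.29 to 0.00 over the 3 of CALR and from -0.19 to 0.19 over the 2 of CANX. Over the 12 ER chaperones differences ran from -0.27, for the disulfide isomerase PDIA5, to 1.24, for DNAJC3. With the mean of its probe sets PDIA5 differed by 0.11.

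The list for transport from the ER to the Golgi holds genes of the COPII coat, which buds vesicles from the ER, and also SEC22B and SEC22C, which are not part of the coat. Of its 8 genes, 7 were below 0 and 1 above, with a median difference of -0.16, and 0 passed an unadjusted p under 0.05. The lowest was SEC24B, a subunit that selects cargo, at -0.33 ± 0.32, and SEC22C, of the family that includes the vesicle fusion protein SEC22B, differed by -0.27 ± 0.27. SEC24B was 10.71, 9.56, 10.37 and 10.18 in controls 1 to 4 and 9.37, 9.59, 10.42 and 10.13 in affected 1 to 4. Control 2, affected 1 and affected 2 were low and the other 5 dogs were alike. Without affected 1 and affected 2 the median of the list was 0.26.

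Some dogs stood apart in the ER lists, but not equally in each list. Mean log2 signal of the 12 ER chaperones was 10.82, 10.17, 10.75 and 10.72 in controls 1 to 4 and 10.57, 10.35, 11.07 and 11.29 in affected 1 to 4. That of the 21 translocation genes was 11.25, 10.93, 11.18 and 11.16 in controls and 11.05, 10.76, 11.31 and 11.46 in affected dogs. In both lists affected 4 was highest and affected 3 next. Affected 4 was the highest of the 8 dogs for 22 of the 66 members (33.3%, against 14.4% of all tested genes). These include 8 of the 21 translocation genes and 7 of the 12 ER chaperones (38.1% and 58.3%). Affected 2 was the lowest for 10 of the 21 translocation genes but for 2 of the 12 ER chaperones (47.6% and 16.7%, against 12.1%). Control 2 was the lowest for 7 of the 12 ER chaperones but for 3 of the 21 translocation genes (58.3% and 14.3%, against 24%).

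For most genes of the ER lists the spread was wider among affected dogs. The SD across affected dogs exceeded that across controls for 16 of 21 translocation genes, 6 of 8 ER to Golgi genes and 9 of 12 ER chaperones (76.2%, 75% and 75%), against 56.9% of all tested genes. For the small heat shock proteins it was wider in affected dogs for 0 of 5. The median SD of the translocation genes was 0.19 in controls and 0.42 in affected dogs. The controls were all beagle crosses and the affected dogs were of several breeds, so breed and disease cannot be told apart for the spread either. All genes of a list were read from the same dogs, so these counts are not separate observations. Affected 1 and affected 2, the lower of the affected dogs in both lists, had the highest GAPDH 3' to 5' ratios of all 8 (1.46 and 1.44), and affected 4, the highest dog, had 1.12. Control 3 had a ratio of 1.34, and its mean of the ER chaperones (10.75) lay between those of controls 1 and 4. Control 2 had the lowest ratio (1.00) and also the lowest mean of the ER chaperones (10.17). The signal ratio of the 3' end to the middle of actin was likewise highest in affected 1 (4.94) and affected 2 (3.12), with control 2 next (2.52). The part of RNA quality in these values was not tested beyond 1 alternative: with the log2 ratio as a covariate the median difference of all members was 0.12 in place of -0.09, and 0 members passed an adjusted p of 0.05 in limma (2 higher and 1 lower at an unadjusted p under 0.05, or 3.03% and 1.52%, against 2.74% and 2.43% of all tested genes).

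**Figure D3:**
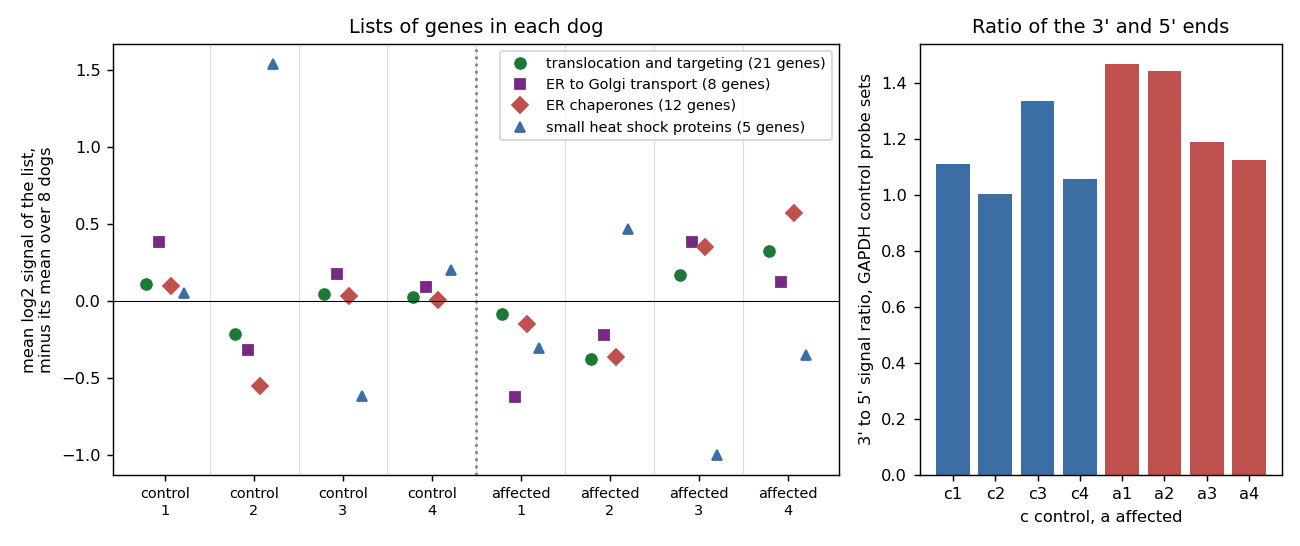
Left, mean log2 signal of 4 lists of genes in each dog, each list centred on its mean over the 8 dogs. Right, ratio of the 3' to the 5' signal of the GAPDH control probe sets, in control (blue) and affected (red) dogs. The translocation and ER chaperone lists are low in control 2 and affected 2 and high in affected 3 and affected 4, the ER to Golgi list is lowest in affected 1, the small heat shock list is highest in control 2 and lowest in affected 3, and the ratio is highest in affected 1 (1.46) and affected 2 (1.44).

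Small heat shock proteins followed another pattern. Of 5 genes, 4 were below 0, with a median difference of -0.43. Control 2 was the highest of the 8 dogs for all 5 (100%, against 21.6% of all tested genes). HSPB3, found mainly in heart and skeletal muscle, was 7.94, 11.22, 6.22 and 8.73 in controls 1 to 4 and 7.00, 8.59, 5.10 and 6.15 in affected 1 to 4. Affected 3 was at the floor, so its value is an upper bound. The difference of -1.82 ± 1.00 was the largest negative one of the members, it was shared by all 3 probe sets (from -1.82 to -1.50), and it was -0.92 without control 2 and -0.38 without control 2 and affected 3. HSPB7, a heart-enriched family member, ran from 9.79 in affected 3 to 13.29 in control 2 and differed by 0.10 ± 0.72, and HSPB1, the widespread HSP27, differed by -0.01 ± 0.30.

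These 3 genes moved with the cardiac muscle markers across the 8 dogs. The mean log2 signal of 17 tested markers was 11.65, 13.48, 10.95 and 12.30 in controls 1 to 4 and 11.84, 12.78, 9.94 and 11.56 in affected 1 to 4. Pearson's r against this mean was 0.92 for HSPB1, 0.93 for HSPB3 and 0.91 for HSPB7 (exact permutation p = 0.00236, 0.00119 and 0.00206, two-sided, each 0.00393 adjusted over the 5 genes compared). Spearman's rho was 0.95, 0.93 and 0.83 (exact permutation p = 0.00114, 0.00223 and 0.0154, and 0.00558, 0.00558 and 0.0256 adjusted). Leaving out control 2 and affected 3, the 2 dogs farthest from the median of the markers, r was 0.91, 0.84 and 0.77 over the other 6. With 4 dogs per group the relation was not computed within groups, and the permutations did not keep dogs within their group. The relation was picked after the values were seen, so these p-values describe it and are no independent test. How many of all tested genes have such an r was not computed.

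For HSPB6 and HSPB8 r was 0.47 and 0.37 (exact permutation p = 0.240 and 0.363, two-sided, and 0.300 and 0.363 adjusted) and rho was 0.31 and 0.43 (exact permutation p = 0.462 and 0.299, and 0.462 and 0.374 adjusted). Without the same 2 dogs r was -0.27 and 0.15. HSPB6, also called HSP20, acts on actin and relaxation in smooth and cardiac muscle. Its log2 signal was 10.26, 11.10, 10.63 and 10.08 in controls 1 to 4 and 9.46, 10.09, 9.72 and 9.59 in affected 1 to 4. The groups touched only at control 4 and affected 2. The difference was -0.80 ± 0.28 with an adjusted p of 0.549 in limma, and it was -0.72 with the cardiac muscle covariate and -0.61 without control 2. HSPB8, which works in the removal of damaged muscle proteins, differed by -0.43 ± 0.26, and its 3 probe sets ran from -0.70 to 0.20.

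**Figure D4:**
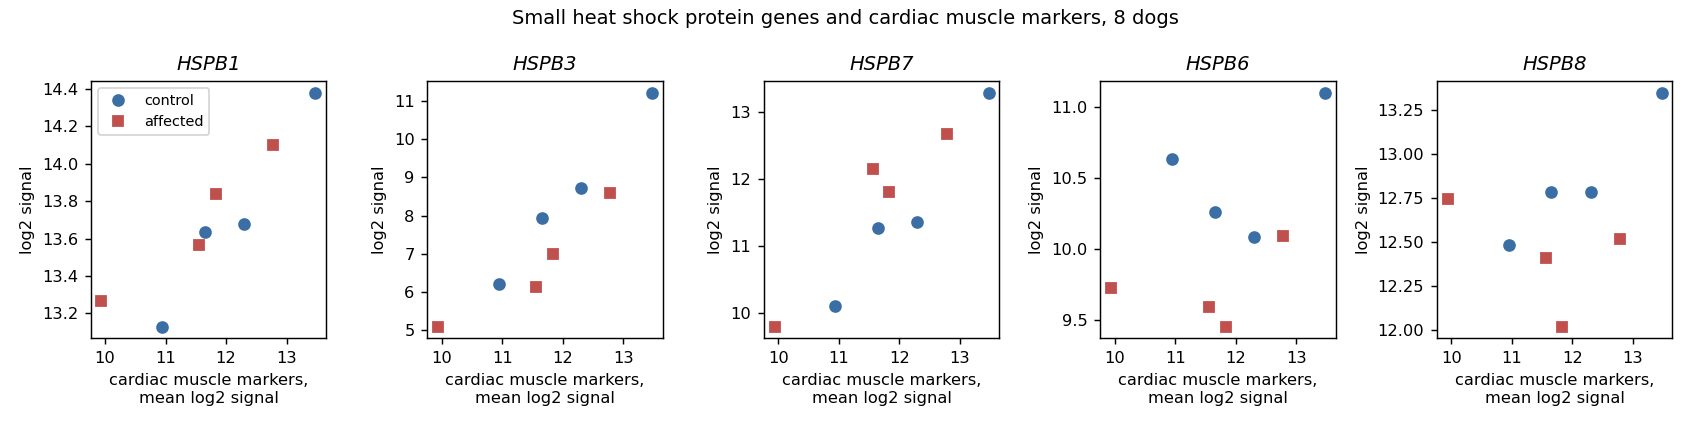
Log2 signal of 5 small heat shock protein genes against the mean log2 signal of 17 cardiac muscle markers in 4 control (blue circles) and 4 affected (red squares) dogs. HSPB1, HSPB3 and HSPB7 increase with the markers (r = 0.92, 0.93 and 0.91), and the points of HSPB6 and HSPB8 are more scattered (r = 0.47 and 0.37).

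The tested cytosolic HSP70 and HSP90 chaperones had small positive differences at their brightest probe sets. HSP90AA1 and HSP90AB1, the inducible and the constitutive HSP90, differed by 0.27 ± 0.22 and 0.14 ± 0.22, and HSPA8, the constitutive HSP70, by 0.22 ± 0.29. The upper limits of their 95% intervals were 0.76, 0.62 and 0.85. The other probe sets of HSP90AB1 reached -0.53 and those of HSPA8 -0.27, so probe sets of these genes did not share a direction. DNAJB1, the heat-inducible J protein that works with cytosolic HSP70, was 10.31, 10.43, 9.05 and 8.83 in controls 1 to 4 and 8.17, 9.27, 8.70 and 12.13 in affected 1 to 4. Affected 4 was the highest and affected 1 the lowest of the 8 dogs, and the difference was -0.09 ± 0.77.

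Among the other J proteins, DNAJC30, a small J protein of mitochondria, had a p under 0.05 before adjustment. It was 8.39, 7.92, 7.66 and 8.24 in controls 1 to 4 and 5.10, 6.22, 8.02 and 7.42 in affected 1 to 4. Affected 1 was at the floor and affected 2 was next, while affected 3 lay among the controls. The difference was -1.37 ± 0.56 with an adjusted p of 0.614 in limma, and it was -0.88 with a floor at the 40th percentile, -0.84 without affected 1 and -0.34 without affected 1 and affected 2. DNAJC7, which links HSP70 and HSP90 in the cytosol, differed by 0.45 ± 0.22, and affected 3 at 9.89 lay just below control 3 at 9.90 while the other affected dogs exceeded all controls. Its other probe set differed by 0.08. DNAJC17, known from splicing, differed by 0.53 ± 0.38.

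The list of mitochondrial chaperones, which does not hold DNAJC30, had 5 genes with a median difference of -0.25, and 4 were below 0. DNAJA3, a J protein partner of mitochondrial HSP70, differed by -0.55 ± 0.30 with affected 1 at 8.10, affected 2 at 8.13 and affected 3 at 8.57 below all controls, while its 3 probe sets ran from -0.55 to 0.02. DNAJC15, a J protein of the inner membrane, differed by -0.36 ± 0.30, and HSPA9, the mitochondrial HSP70 itself, by 0.02 ± 0.42. HSPBAP1, which has the prefix but is a partner of HSPB1 and not a chaperone of the family, differed by 0.01 ± 0.27.

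Agreement among probe sets bounds these values where it could be checked. SEC61A1, HSPB6 and DNAJC30 have 1 probe set each, so it could not be checked for them. Of 18 members with more than 1 tested probe set, 6 had all of them in 1 direction and 12 did not. The 6 were DNAJC3, DNAJC7, HSPA9, HSPB3, SEC31A and SSR3.

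Other genes of the pathway were read from a list set out by role, and 0 of its members passed an adjusted p of 0.05 in limma. In the unfolded protein response 5 of 15 genes were measured with a median difference of 0.33. Of these 4 were above 0 and 1 below, and 0 had an unadjusted p under 0.05 in either direction. PPP1R15A, which restarts translation after stress, differed by 0.50 ± 0.31, and by 0.12 with the mean of its probe sets. HERPUD1, an ER stress target that acts in degradation, differed by -0.36 ± 0.23 and ATF6B, a stress sensor of the ER membrane, by 0.33 ± 0.24.

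In ER degradation 8 of 13 genes were measured, with a median difference of 0.38. OS9, a lectin that recognises misfolded glycoproteins, was 11.90, 11.54, 11.94 and 11.33 in controls 1 to 4 and 12.69, 12.22, 12.03 and 11.96 in affected 1 to 4. The groups did not overlap, but affected 4 exceeded control 3 by little, the difference was 0.55 ± 0.25 with an adjusted p of 0.644 in limma, and it was 0.13 with the mean of its probe sets. EDEM2, which trims mannose from misfolded glycoproteins, differed by 1.11 ± 0.49 (unadjusted p = 0.0462 and adjusted p = 0.631 in limma), and by 0.53 with the mean of its probe sets. UBE2G2, a ubiquitin-conjugating enzyme of the pathway, differed by -0.52 ± 0.31.

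Of 27 other ER folding factors 10 were measured and 9 tested, with a median difference of 0.01. SDF2L1, a partner of HSPA5 and its J proteins, was 9.50, 8.14, 9.25 and 8.97 in controls 1 to 4 and 10.64, 9.38, 9.30 and 10.87 in affected 1 to 4. Affected 1 and affected 4 were highest, as for the brightest probe set of DNAJC3, and affected 2 and affected 3 lay just below control 1. The difference was 1.08 ± 0.43 (unadjusted p = 0.0315 and adjusted p = 0.610 in limma). PPIB, a proline isomerase that assists collagen folding, differed by 0.60 ± 0.33. FKBP2, another proline isomerase, differed by 0.45 ± 0.23, and by 0.16 with the mean of its probe sets.

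Of 16 translocon partners and glycosylation genes 10 were measured, with a median of 0.10. RPN2 and STT3A, subunits of the enzyme that attaches glycans, differed by 0.37 ± 0.25 and 0.28 ± 0.29, and SRPRB, of the SRP receptor, by -0.25 ± 0.29. For RPN2 the mean of its probe sets gave 0.05. Of 30 cytosolic and mitochondrial partners 24 were measured, with a median of -0.01. The co-chaperones STIP1 and ST13, which both connect HSP70 with HSP90, differed by -0.91 ± 0.52 and -0.36 ± 0.22, and FKBP5, an HSP90 partner that glucocorticoids induce, by 1.19 ± 0.68. FKBP5 ranged from 7.41 in control 3 to 11.20 in affected 3, and affected 4 at 8.41 lay among the controls.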

How the data were processed

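Each dog's total RNA was run on a single Affymetrix array, per the labels. The authors deposited linear intensity values for probe sets, computed by MAS5 according to the submitters' processing notes; the sources used here give no version, detection calls or filters. Every array had a trimmed mean of 500.1 (2% dropped from either tail), so scaling preceded deposit. Such scaling takes total signal as equal across arrays, and MAS5 values near background are imprecise.

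Signals were set to a common trimmed mean, floored at the 20th percentile of all signals (34.2) and taken to log2. Testing required 4 of 8 arrays above their own 40th percentile. Groups were compared with limma 3.58.1 in R 4.3.3 (lmFit, then eBayes with a trend on intensity), two-sided, with Benjamini-Hochberg adjustment over 14705 probe sets and a threshold of 0.05. The fit was tested on simulated data with independent noise for each probe set. Those data held no outlying dogs and no effects shared by the genes of a dog, so they do not cover these features. No list test was made. Gene names come from the platform annotation, which gives no genome build. The gene identifiers of 66 of the 68 members were found in the RefSeq table of UU_Cfam_GSD_1.0, with 0 symbols changed. No sequences are shown.

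Members and lists were chosen with earlier results of these data known. Named genes are a fixed core of ER, SRP, HSP70, HSP90 and HSPB genes, the 5 members per direction with the largest difference, members whose groups do not overlap, the 2 with the smallest p per role, and the 3 with the smallest p per pathway group. DNAJB1, PDIA5 and SEC61A2, and the relation of HSPB genes to muscle markers, were picked after their values were seen. Alternatives were other normalizations, floors, filters, eBayes settings, array weights, covariates, the mean of a gene's probe sets, the replicate number as a block, and leaving out dogs.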

Additional observations from a re-analysis of the deposited data

Results flagged for a closer look

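A dog far from the other 3 of its group was looked for in 144 groups of 4, which covers each named gene and the mean of each role list in controls and in affected dogs. Such a dog was found in 9 groups (6.25%). Chance alone gives about 1 in 20 groups, here 7.2, so the number of such groups is near what chance gives.

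Control 2 was the dog in 5 of the 9. It was lowest among controls for SEC61A1 at 8.46 (next control 10.59), for SEC63 at 9.99 (next 11.21), for SEC11A at 11.81 (next 12.28) and for the mean of the ER chaperones at 10.17 (next 10.72). It was highest for the mean of the cytosolic HSP70 and HSP90 genes at 13.69 (next 13.26). The low value of SEC63 is that of its brightest probe set. Another probe set of SEC63 had control 2 as the highest control (10.46), and the last had it as the lowest (6.05). The values of control 2 stand beside the cardiac muscle markers of the same dog (mean log2 signal 13.48, the highest of the 8), and the part of these markers was not tested.

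The other 4 were single genes. DNAJC15 was 8.46 in affected 1 (next 9.37), SPCS3 was 11.81 in affected 4 (next 11.04), ST13 was 10.52 in control 3 (next 10.94), and DNAJC17 was 6.63 in control 4, where the other controls lay so close together (6.45 to 6.48) that a small gap stood out.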

How the results depend on the processing

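No alternative made a member pass an adjusted p of 0.05 in limma, and 33 of 63 named genes kept their sign under each of the 22 that gave them a value. Of 1382 pairs of gene and alternative, 107 turned sign. The cause of each change below was not tested. With 4 dogs per group, MAS5 signals and dim probe sets limit what can be seen, and an absent call does not show that groups were alike.

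Over all tested probe sets, limma called 4 with the replicate block, 1 without control 1, 128 without control 2 and affected 3, and 0 otherwise. Same-numbered dogs correlated at -0.12, 0.41, 0.02 and -0.01, and dogs of different number at -0.46 to 0.46. These values give no sign that the numbers pair the dogs, but they cannot exclude it. The replicate block left 0 members called, with 2 higher and 3 lower at an unadjusted p under 0.05 (5.63% and 5.02% of all tested genes).

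That unadjusted p took 1 member higher with median centring or no trend (3.55% and 4.58% of all tested genes), 3 higher and 1 lower with no filter (4.66% and 4.01%), and 1 lower with the stricter filter (4.05%) or the 3' to 5' covariate (2.43%). Leaving out 1 dog gave 1 to 4 members higher and 1 to 3 lower, against 2.98% to 6.79% and 1.97% to 5.61% of all tested genes. Groups then did not overlap for 1 to 5 higher and 0 to 3 lower, against 3.27% to 7.28% and 3.05% to 6.05%. Without control 2 and affected 3 the counts by p were 4 higher and 7 lower (6.06% and 10.6% of members, against 7.95% and 8.66% of all tested genes), and by overlap 8 and 6 (12.1% and 9.09%, against 10.9% and 12.7%). Without affected 1 and affected 2 overlap gave 10 and 2 (15.2% and 3.03%, against 8.53% and 8.42%), and with median centring 1 lower (1.52%, against 1.97%).

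Leaving out 1 dog, differences ran from -0.28 to 0.21 for CALR, -0.55 to 0.22 for HSPA5, -0.30 to 0.36 for HSPA9, -0.21 to 0.21 for HSPB1, -0.37 to 0.71 for HSPB7, -0.13 to 0.13 for HSPBAP1, -0.60 to 0.15 for PDIA3, -0.26 to 0.032 for SEC11A, -0.12 to 0.19 for SEC11C, -0.45 to 0.058 for SEC63, -0.17 to 0.29 for SPCS3, -0.11 to 0.16 for SRP54, -0.11 to 0.24 for SRP68, -0.29 to 0.063 for SRP72, -0.20 to 0.50 for SSR1, -0.33 to 0.23 for SEC61A2 and -0.94 to 0.38 for DNAJB1.

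Signs or medians moved as follows. With quantile normalization the difference was -0.046 for HSPBAP1. With median centring differences were -0.051 for HSPA9, -0.068 for HSPBAP1, -0.045 for SEC11C, -0.035 for SPCS3, -0.043 for SRP54 and -0.0060 for SRP68. Under array weights they were 0.055 for the median of other J proteins, 0.077 for HSPB1, -0.17 for HSPBAP1, -0.053 for SEC11C, 0.30 for SEC61A2 and 0.38 for DNAJB1. Adding the cardiac muscle covariate gave 0.056 for the median of other J proteins, 0.20 for HSPB1, -0.079 for SEC11C, -0.052 for SRP54, -0.053 for SSR1, -0.0029 for SSR3, 0.097 for SEC61A2 and 0.056 for DNAJB1. Adding the 3' to 5' covariate, an alternative chosen after seeing the data, gave 0.12 for the median of all members, 0.055 for the median of other J proteins, 0.10 for CALR, 0.59 for HSPA5, 0.069 for HSPB1, 0.47 for PDIA3, 0.012 for SEC61G, 0.050 for SPCS2, 0.13 for SRP72, 0.039 for SRP9, 0.029 for STIP1 and 0.84 for DNAJB1. With control 2 and affected 3 left out they were 0.49 for the median of cytosolic HSP70 and HSP90, 0.21 for the median of other J proteins, 0.35 for HSPB1, -0.036 for PDIA6, -0.17 for SEC11C, -0.10 for SRP54, -0.20 for SSR1, -0.0016 for SSR3, -0.044 for SSR4, -0.023 for STT3A, 0.44 for SEC61A2 and 0.46 for DNAJB1. With affected 1 and affected 2 left out, also chosen after seeing the data, they were 0.22 for the median of all members, 0.26 for the median of ER to Golgi transport, 0.44 for CALR, -0.028 for HSP90AB1, 0.68 for HSPA5, -0.53 for HSPB7, -0.13 for HSPBAP1, 0.86 for PDIA3, 0.13 for SEC11A, 0.071 for SEC24B, 0.23 for SEC61G, 0.15 for SEC63, 0.18 for SPCS2, 0.22 for SRP72, 0.22 for SRP9, 0.13 for SRPRB, 0.062 for PDIA5 and 0.76 for DNAJB1. Taking the mean of a gene's probe sets gave -0.050 for the median of cytosolic HSP70 and HSP90, -0.20 for HSP90AB1, -0.050 for HSPA8, 0.30 for SEC63, -0.090 for SRP68, 0.11 for PDIA5 and -0.23 for SSR1.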
